A study of Mus musculus with 3 samples.

Results

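The matrix metalloproteinases (Mmp), the membrane-anchored and secreted metalloproteinases of the Adam and Adamts families, the protease-less Adamts-like proteins (Adamtsl) and the tissue inhibitors of metalloproteinases (Timp) were examined in 2 chromatin peak lists of mouse beige adipocytes. Peaks were chosen by the symbol of the gene to which the authors' annotation assigned them, which is the gene with the nearest transcription start site (TSS) at any distance. In the Foxp4 list 94 of 16937 peaks were assigned to 45 of these genes. In the H3K27ac list 132 of 17564 peaks were assigned to 34 of them. Among 21031 protein-coding genes with a curated RefSeq transcript (GRCm38.p6, which is mm10) 85 carry such a name: 23 Mmp, 4 Timp, 34 Adam, 19 Adamts and 5 Adamtsl genes.

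Chromatin immunoprecipitation with sequencing (ChIP-seq) was performed in beige adipocytes, fat cells with thermogenic capacity that arise within white fat. The cells came from the stromal-vascular fraction (SVF) of inguinal white adipose tissue (iWAT) of C57BL/6 mice, with no genetic change named. Both libraries share the same culture: 3 days in 20% serum and on to confluence, then 48 h of induction in 10% serum, then 6 days of further culture. The induction agents were troglitazone at 5 µM, the thyroid hormone T3 at 50 nM, dexamethasone at 1 µM, isobutylmethylxanthine at 0.5 mM and insulin at 5 µg/ml, and troglitazone, T3 and insulin stayed on for the 6 days. The groups were 1 Foxp4 ChIP library and 1 H3K27ac ChIP library, and an input DNA library was not used here. The protocol text names the Foxp4 antibody for all 3 libraries and no antibody for H3K27ac. Neither the number of mice nor their age is given in the sources used here, and SVF cultures can keep cells that did not become adipocytes. With 1 library a target there is no replicate, so values are given as descriptions of these lists with no test. Read depth is unknown, and the exact (Clopper-Pearson) 95% intervals cover counting error only.

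Matrix metalloproteinases are zinc enzymes that cut collagens, proteoglycans and other matrix proteins, and the Timp proteins bind and inhibit them. Adam proteins sit in the membrane and release the outer parts of growth factors, receptors and Notch ligands, while a large branch of the family works in sperm and the reproductive tract. Adamts enzymes are secreted and process procollagens or cut proteoglycans such as versican and aggrecan, and Adamtsl proteins resemble them without the protease domain. Fat tissue needs this set to reshape its matrix as adipocytes form and grow: mouse Mmp14 is known for clearing collagen around adipocytes, and mouse Adam12 for a part in forming them. Foxp4 is a forkhead transcription factor of the Foxp group, and H3K27ac, acetylation of histone H3 at lysine 27, marks active promoters and enhancers.

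Foxp4 peaks and H3K27ac peaks were each found in all 5 families, and in each family some genes had several peaks of a list and others none. The genes with the most H3K27ac peaks were Adamts2 with 16, Adam12 with 15, and Adam19, Adamts5 and Adamts15 with 10 each. The genes with the most Foxp4 peaks were Timp3 with 7, Adam12 with 6, Adamtsl1 and Adamtsl3 with 5 each, and Adam19, Adamts5, Adamts15 and Mmp16 with 4 each. Of all 85 genes, 25 had peaks in both lists, 20 had Foxp4 peaks alone, 9 had H3K27ac peaks alone and 31 had none. Of the 94 Foxp4 peaks, 6 shared bases with an H3K27ac peak, 6.38% (2.38 to 13.4%), beside 8.21% of the whole Foxp4 list. These 6 lay at Adam12 (2 peaks), Adam19, Adam33, Adamtsl1 and Adamtsl3. The other genes with peaks in both lists carried them at separate positions.

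**Figure D1:**
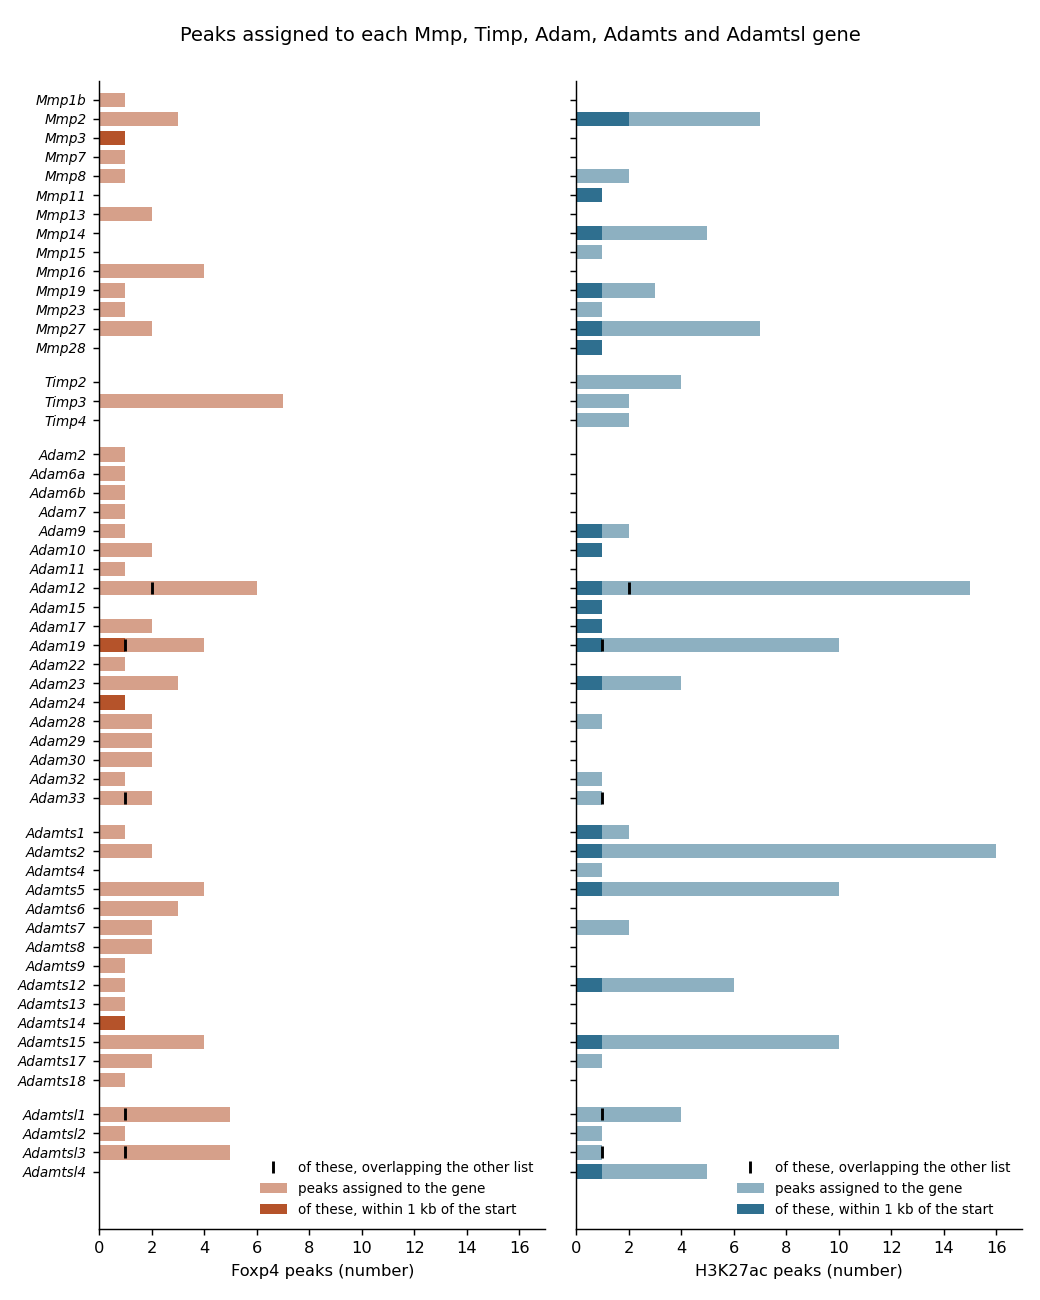
Number of peaks assigned to each of the 54 genes with a peak in either list, Foxp4 on the left and H3K27ac on the right, grouped by family. Dark bar sections are peaks within 1 kb of the TSS, and black ticks stand at the number of peaks that overlap the other list. Adamts2 and Adam12 have the longest H3K27ac bars with 16 and 15 peaks, and Timp3 has the longest Foxp4 bar with 7.

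A Foxp4 peak was assigned to 45 of 85 members, 52.9% (interval 41.8 to 63.9%), beside 36.6% of all protein-coding genes. An H3K27ac peak was assigned to 34 of 85, 40.0% (29.5 to 51.2%), beside 37.5% of all genes. Both kinds of peak were assigned to 29.4% (20.0 to 40.3%) of members and to 20.4% of all genes. Member genes were longer than genes in general, with a median length of 22270 bp beside 17730 bp, and the members with a Foxp4 peak had a median of 37200 bp against 13990 bp for those with none. A long gene offers more positions to which a peak can be assigned, so counts were also read by length. In genes of 50 kb or more, 20 of 28 members (71.4%, 51.3 to 86.8%) and 58.7% of all genes had a Foxp4 peak. From 10 to 50 kb the shares were 50.0% (32.4 to 67.6%) of 34 members and 36.7% of all genes, and under 10 kb 34.8% (16.4 to 57.3%) of 23 members and 21.8% of all genes. The member share was the higher of the pair in each band, by 13 percentage points, but the share of all genes lay inside the members' interval in each. For H3K27ac the shares of members and of all genes were 50.0% and 49.9% at 50 kb or more, 44.1% and 41.4% from 10 to 50 kb, and 21.7% and 24.6% under 10 kb.

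Several H3K27ac peaks each were assigned, at any distance, to Mmp2, Mmp14, Mmp27, Timp2, Adam12, Adam19, Adam23, Adamts2, Adamts5, Adamts12, Adamts15, Adamtsl1 and Adamtsl4. They did not always lie at the gene. Of the 10 assigned to Adamts5, 2 lay within 100 kb of the TSS. Of the 10 assigned to Adamts15, 2 lay in the gene body, and the 4 assigned to Adamtsl1 spanned 336 kb. At least 4 H3K27ac peaks were assigned to 13 of 85 members, 15.3% (8.40 to 24.7%), beside 4.35% of all genes. This count was not recomputed with another cut, within 100 kb of the TSS or inside gene bodies. These 13 genes were long, with a median of 54350 bp. In genes of 50 kb or more, 7 of 28 members (25.0%, 10.7 to 44.9%) and 9.72% of all genes had at least 4, and from 10 to 50 kb 6 of 34 members (17.6%, 6.76 to 34.5%) and 3.61% of all genes. In those 2 bands the share of all genes lay below the members' interval. Under 10 kb 0 of 23 members and 1.68% of all genes had at least 4.

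Peaks of members lay far from promoters. The median distance from the TSS was 47140 bp for their Foxp4 peaks, beside 27280 bp over the whole Foxp4 list, and 19230 bp for their H3K27ac peaks, beside 5500 bp over the whole H3K27ac list. Within 1000 bp of the TSS, called the promoter here, lay 4 of 94 Foxp4 member peaks, 4.26% (1.17 to 10.5%), beside 9.48% of the whole list. For H3K27ac the promoter held 20 of 132 member peaks, 15.2% (9.51 to 22.4%), beside 36.5% of the whole list. Introns held 54.3% of the Foxp4 and 57.6% of the H3K27ac member peaks, beside 43.5% and 45.8% of the whole lists. Counted by gene, a Foxp4 promoter peak was found at 4 of 85 members, 4.71% (1.30 to 11.6%), beside 6.77% of all genes. An H3K27ac promoter peak was found at 19 of 85, 22.4% (14.0 to 32.7%), beside 26.0% of all genes.

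Each peak carries the authors' score, a whole number of at least 20 that ranks peaks within its own list and cannot be set against the other list. The Foxp4 member peaks scored 20 to 56 with a median of 27, which is also the median of the whole list, where scores reached 1357. The H3K27ac member peaks scored 20 to 144 with a median of 39, beside 40 over the whole list. Foxp4 scores pile up at 21, 27, 34, 41, 49 and 57. These 6 recurrent values were held by 64 of 94 member peaks, 68.1% (57.7 to 77.3%), and by 73.1% of the whole list. Repeats held 32 of 94 Foxp4 member peaks, 34.0% (24.6 to 44.5%), beside 32.0% of the whole list, and 20 of 132 H3K27ac member peaks, 15.2% (9.51 to 22.4%), beside 15.7%. The whole-list shares of recurrent values and repeats lay within the members' intervals.

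As a check on the cells, marker genes were read for H3K27ac, beside 37.5% of all genes with an H3K27ac peak at any distance and 26.0% with one at the promoter. Of 10 adipocyte markers 9 had an H3K27ac peak and 8 one at the promoter, including Pparg, Cebpa and Plin1. Of 8 beige or brown adipocyte markers 4 had an H3K27ac peak, Ppargc1a (4 peaks, top score 61), Ebf2 (6 peaks, top score 62), Elovl3 and Cox8b, and Ebf2 alone had one at the promoter. Ucp1, Prdm16 and Dio2 had no peak in either list. Of 8 stromal progenitor markers 6 had an H3K27ac peak and 4 one at the promoter, among them Pdgfra with a top score of 64 and Col1a1 with 100. H3K27ac peaks were also found at 2 of 6 macrophage markers (1 at the promoter, Cd68), 5 of 5 mural or smooth muscle markers (1 at the promoter, Acta2), 4 of 6 endothelial markers (0 at the promoter) and 0 of 4 skeletal muscle markers. Stromal markers thus carried acetylated promoters in the same library as the adipocyte markers, and which cells contributed each H3K27ac peak of a metalloproteinase gene was not tested. A mark on few cells and a weak mark on all of them cannot be told apart in such a library.

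The 4 Foxp4 promoter peaks are shown with the promoters that the peaks touched. They lay at Adam19, Adam24, Adamts14 and Mmp3. Adam19, the protease also called meltrin beta, had a Foxp4 peak at chr11:46056403-46057050 with a score of 37, centred 742 bp downstream of the TSS in intron 1. All of its 648 bp lay within an H3K27ac peak that scored 73, and it was the only one of the 4 that met H3K27ac. Mmp3, stromelysin-1, a broad matrix protease that also activates other Mmp enzymes, had its single peak at chr9:7445390-7445835 with a score of 27, centred 210 bp upstream of the TSS. The nearest H3K27ac peak was 108346 bp away. Adamts14, a procollagen N-proteinase, had its single peak at chr10:61273835-61274302 with a score of 36, 630 bp upstream, 78427 bp from H3K27ac. Adam24, known in mouse as a testis gene, had its single peak at chr8:40674276-40674680 with a score of 21, 599 bp upstream, 161766 bp from H3K27ac. Of the 4, the scores 27 and 21 are recurrent values.

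RefSeq promoter windows, from 250 bases before to 50 bases after a start, were matched for 54 of the 85 members, in 59 windows. A Foxp4 peak touched 1 of the 59, at Mmp3, covering 264 of its 300 bases (1.69% of member windows, beside 2.87% of all 32851 windows). H3K27ac peaks touched 6 of the 59, at Adam10, Adam17, the second Adam19 start, Adamtsl4, Mmp14 and Mmp27 (10.2%, beside 12.6% of all windows). The windows of Adamtsl4 and Mmp27 lay inside an H3K27ac peak over all 300 bases, while Mmp14 was touched over 50 bases, Adam19 over 34 and Adam10 over 23. The 250 bases before the start are printed for Mmp3, as the one promoter window under a Foxp4 peak, and for Mmp27, Mmp14 and Adam19, as promoters touched by acetylation. They are RefSeq sequences of GRCm38.p6, 5′ to 3′ in the direction of transcription, and capitals mark matches to the motifs TGTTTAC or TGTTTAT (forkhead), TGANTCA (AP-1) and TTGCNNAA (C/EBP), searched on both strands.
Mmp3, chr9:7445572-7445821, plus strand: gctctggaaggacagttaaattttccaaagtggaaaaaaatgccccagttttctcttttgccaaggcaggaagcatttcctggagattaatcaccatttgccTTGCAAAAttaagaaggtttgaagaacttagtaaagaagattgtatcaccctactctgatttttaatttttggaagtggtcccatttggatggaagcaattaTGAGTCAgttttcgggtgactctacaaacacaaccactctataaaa
Mmp27, chr9:7571146-7571395, plus strand: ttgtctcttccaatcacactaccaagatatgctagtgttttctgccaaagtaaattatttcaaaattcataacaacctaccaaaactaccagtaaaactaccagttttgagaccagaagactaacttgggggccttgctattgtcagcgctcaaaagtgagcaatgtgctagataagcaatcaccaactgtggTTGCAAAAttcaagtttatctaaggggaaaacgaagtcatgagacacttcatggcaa
Mmp14, chr14:54431348-54431597, plus strand: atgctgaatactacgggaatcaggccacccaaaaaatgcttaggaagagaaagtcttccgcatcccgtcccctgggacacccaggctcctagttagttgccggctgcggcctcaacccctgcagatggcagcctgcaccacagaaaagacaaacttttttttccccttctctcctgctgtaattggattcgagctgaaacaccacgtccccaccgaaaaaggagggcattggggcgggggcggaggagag
Adam19, chr11:46055734-46055983, plus strand: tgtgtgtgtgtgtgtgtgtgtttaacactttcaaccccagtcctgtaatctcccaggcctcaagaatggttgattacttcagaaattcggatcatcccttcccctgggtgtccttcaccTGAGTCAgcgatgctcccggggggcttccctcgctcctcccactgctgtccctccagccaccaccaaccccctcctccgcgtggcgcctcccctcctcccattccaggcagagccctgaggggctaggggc

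Under the Foxp4 peak of Mmp3 lay 2 of these matches, the AP-1 letters that begin 46 bases upstream of the start and the C/EBP letters that begin 148 bases upstream, and no forkhead letters. Mmp27, in the acetylated window, had the C/EBP letters 57 bases upstream and neither forkhead nor AP-1 letters. Mmp14 had no match in its window, and the second Adam19 start had the AP-1 letters 131 bases upstream. Over all member windows, TGTTTAC was found in 5 of 59 (8.47%, 2.81 to 18.7%), beside 3.65% of all windows. TGTTTAT was found in 2 of 59 (3.39%, 0.413 to 11.7%), beside 4.60%. Both shares of all windows lay within the members' intervals. The windows with TGTTTAC belonged to the first Adam19 start, Adam8, Adamts13, Mmp10 and Mmp13, and no Foxp4 peak covered these letters in any of them. A match describes letters and not binding, and the sequences under the other Foxp4 peaks were not analysed here.

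The Mmp cluster on chromosome 9 holds 10 of the 23 Mmp genes, Mmp13, Mmp12, Mmp1b, Mmp3, Mmp1a, Mmp10, Mmp8, Mmp27, Mmp20 and Mmp7, between positions 7272514 and 7699585. H3K27ac was found in a single stretch of these 427 kb: all 9 peaks were assigned to Mmp8, neutrophil collagenase, and its neighbour Mmp27, and lay within 25.8 kb, from 7554182 to 7579960. Foxp4 peaks were spread along the whole cluster, 8 in all, assigned to Mmp13 (2), Mmp1b, Mmp3, Mmp8, Mmp27 (2) and Mmp7. No Foxp4 peak shared a base with an H3K27ac peak there. Over the whole Mmp family 0 of 17 Foxp4 peaks did (exact interval up to 19.5%). The share of the whole Foxp4 list, 8.21%, lies within that interval.

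The 7 H3K27ac peaks of Mmp27 scored 25, 41, 48, 69, 49, 40 and 43 in chromosomal order, the highest at chr9:7571043-7572482 over the TSS and intron 1. The first of them lay in the 3′ UTR of Mmp8 and the second at its transcript end. Mmp8 itself had H3K27ac peaks with scores of 29 and 43. Between these 2 lay a Foxp4 peak assigned to Mmp8, at chr9:7555509-7555792, with a score of 26 and 955 bp from the nearest H3K27ac peak. The highest-scoring Foxp4 peak of the cluster, 41, was assigned to Mmp27 and lay 23309 bp downstream of its TSS at chr9:7594538-7594872, 14577 bp from H3K27ac. Mmp13, collagenase-3, had Foxp4 peaks scoring 21 and 34 at 1457 bp upstream and 26959 bp downstream, and no H3K27ac peak. Mmp12, macrophage elastase, Mmp1a, Mmp10 and Mmp20 had no peak in either list.

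**Figure D2:**
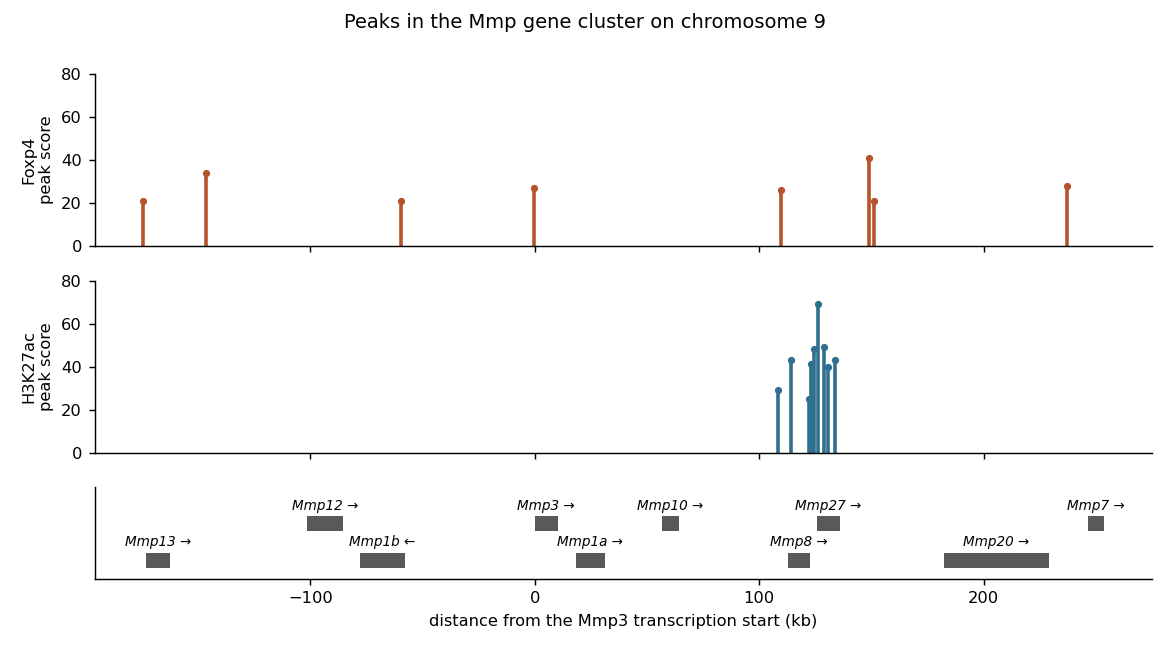
Peak scores along the chromosome 9 Mmp cluster, with Foxp4 above H3K27ac, plotted by distance of the peak centre from the Mmp3 TSS in kb, and the 10 genes below with their direction. The 9 H3K27ac peaks stand together at Mmp8 and Mmp27, and the 8 Foxp4 peaks are spread from Mmp13 to Mmp7.

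Motif letters were also read over the promoters of the cluster, which was chosen after its values were seen. The AP-1 letters TGANTCA were found in 8 of its 12 RefSeq windows (66.7%, 34.9 to 90.1%), 1 for each of 8 genes, beside 10.6% (3.55 to 23.1%) of the 47 other member windows and 7.81% of all windows. The 2 genes without them were Mmp8 and Mmp27, the 2 with H3K27ac peaks. These 2 genes lie 2.91 kb apart in the same acetylated stretch, and a link between the letters and H3K27ac was not tested. The C/EBP letters were found in 6 of the 12 (50.0%, 21.1 to 78.9%), beside 10.8% of all windows. Neighbouring Mmp genes arose by duplication, so these windows are not independent of each other. The last 100 bases before each start are printed for the other genes of the cluster in chromosomal order, with both starts of Mmp12 and Mmp7, and with capitals as above.
Mmp13, chr9:7272414-7272513, plus strand: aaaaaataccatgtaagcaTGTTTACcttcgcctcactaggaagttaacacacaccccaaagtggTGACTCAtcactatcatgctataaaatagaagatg
Mmp12, chr9:7344297-7344396, plus strand: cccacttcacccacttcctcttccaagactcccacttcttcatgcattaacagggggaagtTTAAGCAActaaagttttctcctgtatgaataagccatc
Mmp12, chr9:7347274-7347373, plus strand: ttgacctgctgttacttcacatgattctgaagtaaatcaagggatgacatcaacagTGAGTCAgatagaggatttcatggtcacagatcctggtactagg
Mmp1b, chr9:7388027-7388126, minus strand: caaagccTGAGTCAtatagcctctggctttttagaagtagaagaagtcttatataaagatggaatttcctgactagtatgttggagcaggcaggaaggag
Mmp1a, chr9:7464041-7464140, plus strand: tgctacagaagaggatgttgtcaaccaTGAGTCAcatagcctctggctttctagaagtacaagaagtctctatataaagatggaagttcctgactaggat
Mmp10, chr9:7502242-7502341, plus strand: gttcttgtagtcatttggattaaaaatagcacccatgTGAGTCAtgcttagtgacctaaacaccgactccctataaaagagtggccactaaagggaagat
Mmp8, chr9:7558329-7558428, plus strand: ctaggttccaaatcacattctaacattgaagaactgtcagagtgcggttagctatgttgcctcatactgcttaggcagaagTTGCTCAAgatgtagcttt
Mmp20, chr9:7628131-7628230, plus strand: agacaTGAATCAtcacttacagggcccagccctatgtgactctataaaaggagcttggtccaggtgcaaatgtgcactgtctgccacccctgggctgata
Mmp7, chr9:7691990-7692089, plus strand: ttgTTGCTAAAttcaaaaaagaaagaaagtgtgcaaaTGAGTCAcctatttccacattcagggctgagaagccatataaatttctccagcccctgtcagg
Mmp7, chr9:7692241-7692340, plus strand: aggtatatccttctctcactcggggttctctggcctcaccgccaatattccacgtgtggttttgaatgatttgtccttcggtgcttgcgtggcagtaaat

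The AP-1 letters began 35 bases upstream of the start at Mmp13, 44 at the second start of Mmp12, 46 at Mmp3, 63 at Mmp10 and at the first start of Mmp7, 73 at Mmp1a, 93 at Mmp1b and 95 at Mmp20. Mmp13 also carried the forkhead letters TGTTTAC 81 bases upstream. Its nearest Foxp4 peak was centred 1457 bp upstream and ended before the window.

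Of the secreted Mmp genes outside the cluster, Mmp2 and Mmp19 had peaks of both kinds and Mmp9 had none. Mmp2, gelatinase A, which cuts basement membrane collagen, had 7 H3K27ac peaks and 3 Foxp4 peaks. Its Foxp4 peaks scored 27, 34 and 24 and were centred 15758 and 10616 bp upstream and 7263 bp downstream of the TSS. Its H3K27ac peaks scored 23, 28, 30, 51, 32, 27 and 83 from upstream to downstream, and the last, at chr8:92827860-92828608, lay in intron 1. The Foxp4 peaks and H3K27ac peaks of Mmp2 did not touch, with a smallest gap of 2020 bp. A further Foxp4 peak inside the gene body, with a score of 34, was assigned to Lpcat2. Mmp19, a secreted protease of many tissues, had 1 Foxp4 peak in intron 2 with a score of 21, 2697 bp from an H3K27ac peak at its promoter that scored 57. A further H3K27ac peak 12011 bp upstream of Mmp19 scored 91. Mmp11, stromelysin-3, had a single H3K27ac peak 873 bp into the gene with a score of 28, and Mmp28, epilysin, one with a score of 41. Mmp9, gelatinase B, had neither kind of peak.

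Among the 6 genes of the membrane-type Mmp group (Mmp14, Mmp15, Mmp16, Mmp17, Mmp24 and Mmp25), Mmp14 had the most H3K27ac peaks and Mmp16 the only Foxp4 peaks. Mmp14, which also activates pro-Mmp2, had 5 H3K27ac peaks with scores of 70, 89, 43, 30 and 74, of which 4 lay between 509 bp upstream and 5565 bp downstream of the TSS and covered 4888 bp. No Foxp4 peak was assigned to it, and the nearest lay 6959 bp from its promoter H3K27ac peak. Mmp15 had 1 H3K27ac peak 23842 bp downstream with a score of 61. Mmp16 had 4 Foxp4 peaks that scored 34, 27, 34 and 21, all at recurrent values, 3 of them 116250 to 776430 bp upstream and 1 in intron 3. The H3K27ac peak nearest to any of them was 1117144 bp away. Mmp17, Mmp24 and Mmp25 had no peak.

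The 4 Timp genes differed in which list they appeared in. Timp3, the inhibitor that stays bound to the matrix and also blocks Adam17, had 7 Foxp4 peaks, the most of any member, which scored 49, 29, 21, 38, 27, 27 and 34 in chromosomal order. The highest, at chr10:86200402-86200725, lay 99849 bp upstream, and 2.24% of the whole list scored higher. Timp3 lies within Syn3, a synapsin gene transcribed the other way, and 4 of the 7 Foxp4 peaks were annotated to Syn3 introns and 3 to Timp3 introns. Timp3 had 2 H3K27ac peaks, with scores of 33 and 44, neither at its promoter, and the smallest gap between the lists was 535 bp. Timp2 had 4 H3K27ac peaks with scores of 43, 49, 48 and 49 and no assigned Foxp4 peak. The first lay in intron 1, centred 1243 bp from the TSS and so just outside the promoter window, and the others 4632 to 11930 bp upstream. Timp4 had 2 H3K27ac peaks scoring 29 and 28, and no Foxp4 peak. Timp1 had none, on a chromosome (X) that holds 68 Foxp4 and 109 H3K27ac peaks in all.

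Adam genes were also read as a reproductive branch and the rest, which differ in gene length and were not matched for it. Most of the reproductive genes were shorter than 10 kb, while the others were 10.4 to 342 kb long. Among 22 Adam genes known chiefly from testis, sperm or epididymis in mouse, a grouping made after the values were seen, 8 had a Foxp4 peak, 1 an H3K27ac peak and 0 an H3K27ac promoter peak, for which the exact interval reaches 15.4%. The one H3K27ac peak, assigned to Adam32 with a score of 74, lay in intron 14 of the adjacent Adam9. Among the other 12 Adam genes, 10 had a Foxp4 peak (51.6 to 97.9%), 9 an H3K27ac peak (42.8 to 94.5%) and 7 an H3K27ac promoter peak (27.7 to 84.8%). The shares of all genes were 36.6%, 37.5% and 26.0%, and 36.4% of the reproductive group had a Foxp4 peak. Foxp4 peaks of the reproductive branch scored 20 to 34 and lay 599 to 425693 bp from the TSS.

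**Figure D3:**
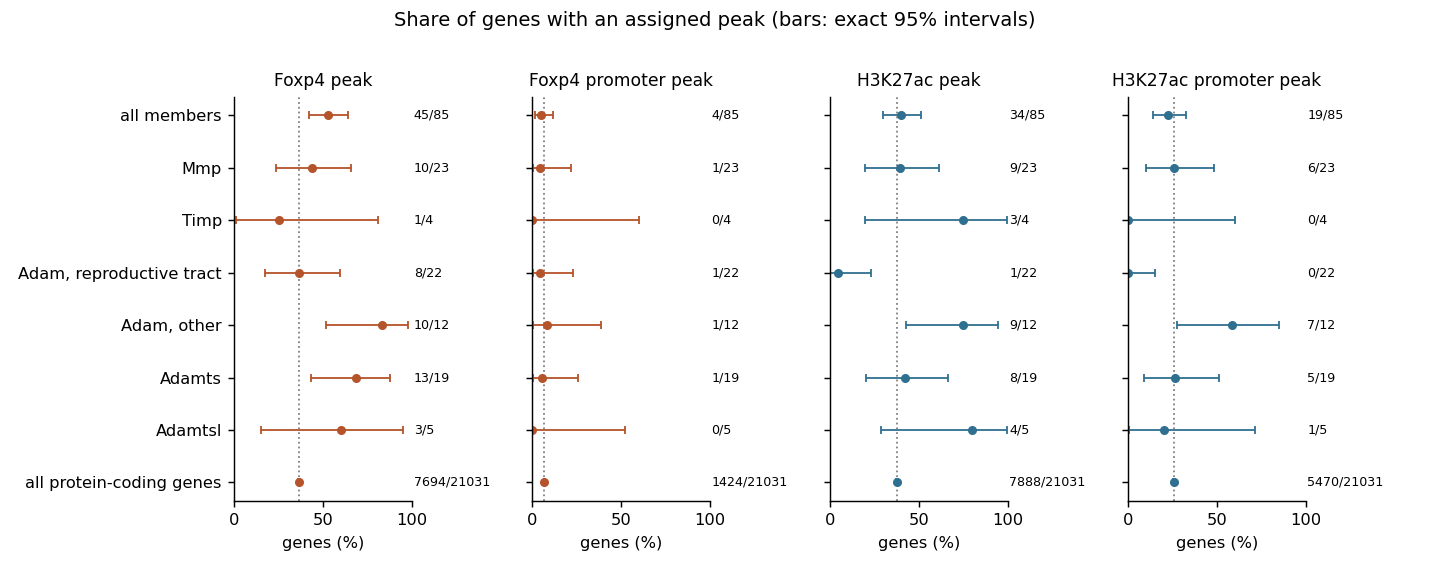
Share of genes in percent with a Foxp4 peak, a Foxp4 promoter peak, an H3K27ac peak and an H3K27ac promoter peak, by family, with the counts to the right of each panel. Points are shares, bars exact 95% intervals, and the dotted line is the share of all protein-coding genes in the bottom row. The reproductive Adam genes stand at 0 of 22 for H3K27ac promoter peaks and the other Adam genes at 7 of 12.

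The sheddases Adam10 and Adam17, which release Notch receptors, tumour necrosis factor and growth factors from the membrane, both had an acetylated promoter and Foxp4 peaks elsewhere. At Adam10 the H3K27ac peak, centred 551 bp downstream, scored 29, and the Foxp4 peaks, in intron 1 and 115685 bp downstream, scored 32 and 27. At Adam17 the H3K27ac peak, 389 bp upstream, scored 68. Its 2 Foxp4 peaks, with scores of 28 and 21, lay in the last intron of the adjacent gene Ywhaq, 17220 bp or more from H3K27ac. Adam9, meltrin gamma, had a promoter H3K27ac peak with a score of 121, which among members Adam19 alone exceeded and which the authors annotated to the promoter of the adjacent gene Tm2d2. Its Foxp4 peak, in intron 8, scored 28 and lay 5326 bp from H3K27ac. Adam15 had an H3K27ac peak 623 bp from its TSS with a score of 43, annotated to the end of Dcst1, and no Foxp4 peak. Adam23, an Adam without protease activity that binds neuronal ligands, had 4 H3K27ac peaks scoring 47, 25, 71 and 23 and 3 Foxp4 peaks scoring 27, 27 and 29, all apart by 16894 bp or more. Adam8, known from myeloid cells, had neither.

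Adam12, meltrin alpha, held the highest Foxp4 score and the most overlapping peaks among peaks assigned to members. At chr7:134177054-134177491, in intron 1 and 47825 bp from the TSS, a Foxp4 peak scored 56, with 1.58% of the whole Foxp4 list scoring higher. All of its 438 bp lay in the highest-scoring H3K27ac peak of the gene, chr7:134175682-134178529 with 79. A second Foxp4 peak in intron 1, at chr7:134192784-134193120 with a score of 27, shared 250 bp with an H3K27ac peak that scored 43. In that intron 6 H3K27ac peaks with scores of 30 to 79 covered 6181 bp between 30.5 and 50.3 kb from the TSS. In intron 3 a Foxp4 peak at chr7:134099525-134100433 with a score of 34 began at the base after an H3K27ac peak with 37 ended, so the peaks touched and shared no base. The other 3 Foxp4 peaks of Adam12, with scores of 27, 24 and 41, were 3585 to 8303 bp from H3K27ac. The promoter H3K27ac peak, centred 202 bp from the TSS, scored 40 and had no Foxp4 peak within 31026 bp.

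Adam19 held the highest H3K27ac score of any member, 144 at chr11:46122397-46123305 in intron 9, with 0.831% of the whole list scoring higher. The nearest Foxp4 peak, 986 bp away, scored 22. Besides the promoter pair, Adam19 had Foxp4 peaks in introns 8 (2) and 21 with scores of 40, 22 and 34. Its other H3K27ac peaks scored 21 to 81. The microRNA gene Mir8100 lies inside Adam19 and took further peaks as their nearest start: 2 Foxp4 peaks with scores of 56 and 32, and 9 H3K27ac peaks with scores of 23 to 79. The Foxp4 peak with 32 lay at chr11:46091756-46092110 and overlapped the H3K27ac peak with 79. Counted by the gene body, Adam19 thus held 6 Foxp4 and 19 H3K27ac peaks, of which 2 in each list overlapped.

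**Figure D4:**
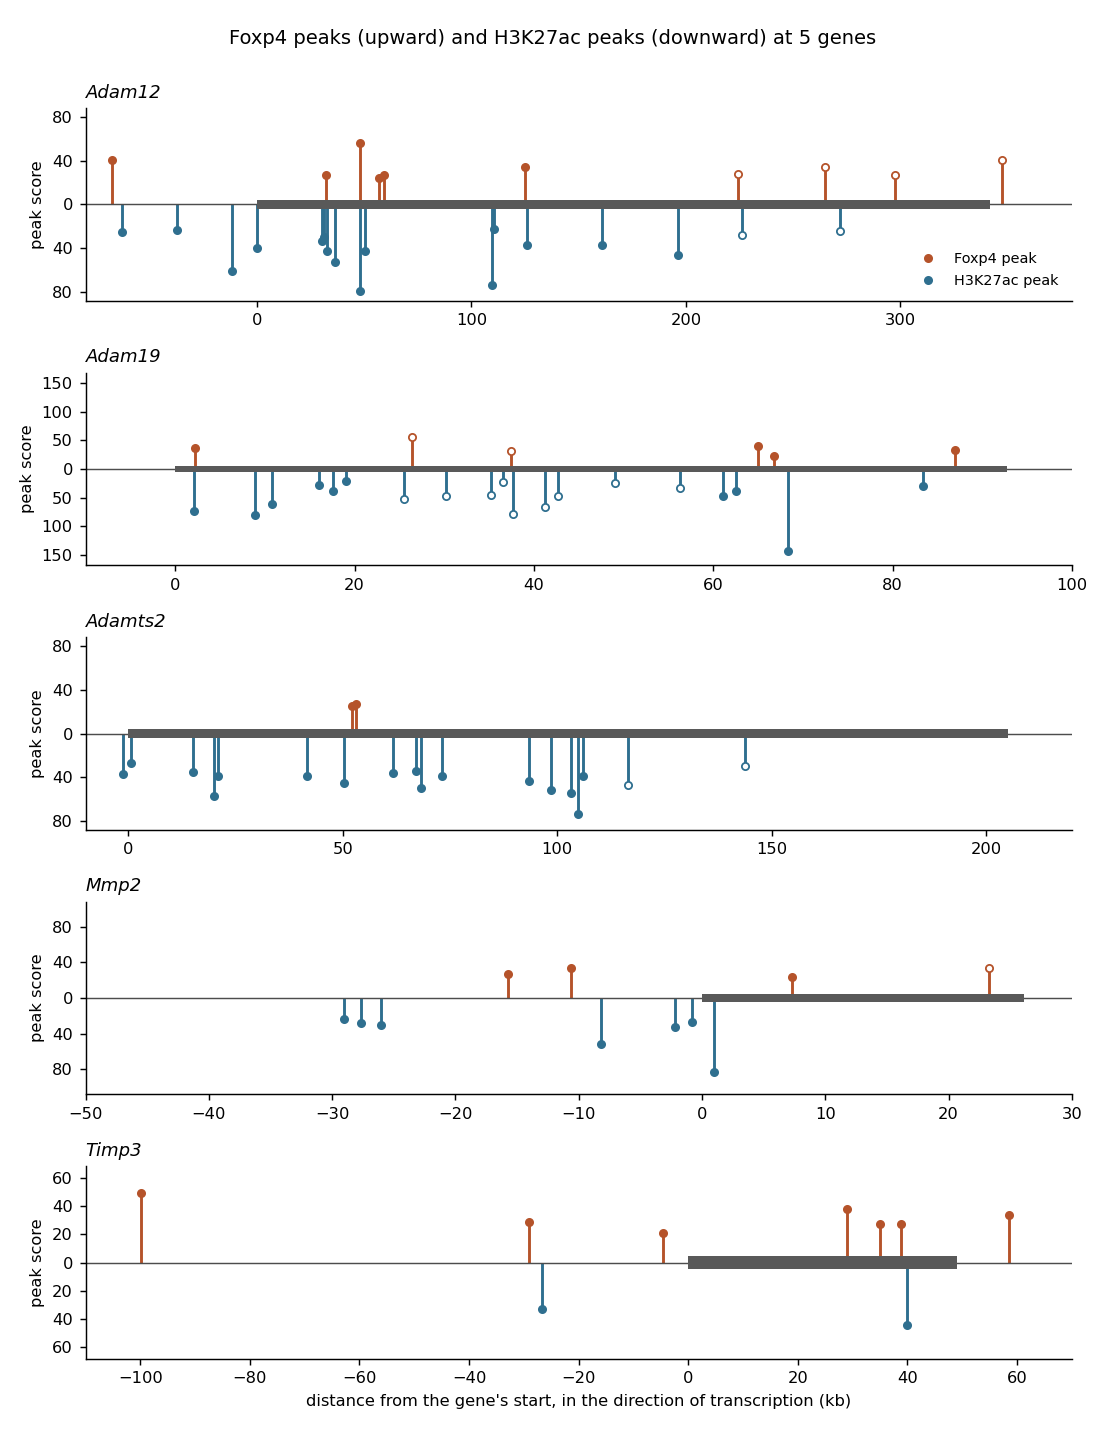
Scores of Foxp4 peaks (upward) and H3K27ac peaks (downward) at Adam12, Adam19, Adamts2, Mmp2 and Timp3, by distance from the gene's RefSeq start in kb in the direction of transcription, with the gene body as a grey bar. Filled points are peaks assigned to the gene and open points are peaks assigned to another gene. The highest Foxp4 and H3K27ac peaks of Adam12, 56 and 79, stand at the same place, while those of Mmp2 and Timp3 stand apart.

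Adam33, made by mesenchymal cells and known from airway disease in human, had a Foxp4 peak with a recurrent score of 41 at chr2:131059631-131060267 in intron 2, of which 469 bp overlapped its only H3K27ac peak, with a score of 22. A second Foxp4 peak, 2965 bp upstream, scored 32. The remaining 2 overlaps were in the Adamtsl family. At Adamtsl1 a Foxp4 peak in intron 14, chr4:86295430-86295753 with a score of 32, lay with all 324 bp inside an H3K27ac peak that scored 24. The other 4 Foxp4 peaks of Adamtsl1 had scores of 27, 21, 34 and 34 and lay 118549 to 278388 bp upstream of the TSS used in the annotation. They were inside the RefSeq span of the gene, which covers 915 kb and begins further upstream than that TSS. At Adamtsl3 a Foxp4 peak in intron 6, chr7:82457104-82457622 with a score of 34, shared 145 bp with the only H3K27ac peak of the gene, which scored 43. Its other 4 Foxp4 peaks, with scores of 21, 41, 27 and 34, lay in introns 4, 6 and 7. Adamtsl4, known in human for its part in the lens zonule, was the reverse, with 5 H3K27ac peaks scoring 86, 74, 51, 54 and 31, the third of them 82 bp from its TSS, and no Foxp4 peak.

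Of the 19 Adamts genes 8 had an H3K27ac peak, and 4 of them, Adamts2, Adamts5, Adamts12 and Adamts15, had at least 4. None of the family's 25 Foxp4 peaks met H3K27ac (exact interval up to 13.7%), beside 8.21% of the whole list, and none of its 48 H3K27ac peaks met Foxp4 (up to 7.40%), beside 7.91%. Promoters held 1 of these 25 Foxp4 peaks and 5 of the 48 H3K27ac peaks. Away from promoters, 4.64% of the whole Foxp4 list met H3K27ac. The like share of the H3K27ac list was not computed. Adamts2, the procollagen N-proteinase whose loss causes a skin fragility disorder, had 16 H3K27ac peaks with scores of 27 to 74, of which 6 in intron 2 covered 4356 bp and 8 in intron 3 covered 5515 bp. Its Foxp4 peaks scored 25 and 27, lay next to each other in intron 2, and were 1389 and 2444 bp from H3K27ac. Its promoter peak had the lowest score of the 16, 27. Adamts12, which with Adamts7 cuts cartilage oligomeric matrix protein, had 6 H3K27ac peaks with scores of 66, 34, 32, 58, 45 and 30, all in introns 1 and 2. Its Foxp4 peak scored 25 and lay in intron 3, 14787 bp or more from them. Adamts7 had 2 of each kind, with Foxp4 scores of 23 and 30 and H3K27ac scores of 59 and 51, and a smallest gap of 1783 bp.

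Peaks were uneven among the members known for cutting proteoglycans. Adamts20 had no peak in either list, and Adamts8 had 2 Foxp4 peaks and no H3K27ac peak. Adamts5, the main mouse aggrecanase, and Adamts1 are neighbours on chromosome 16, 55.0 kb apart. Adamts5 had an H3K27ac peak over its first exon with a score of 75 that was 2548 bp wide, 1 more 25685 bp upstream with a score of 25, and 8 with scores of 23 to 66 between 241 and 402 kb upstream. Its 4 Foxp4 peaks scored 21, 34, 27 and 35 and were 21855 bp or more from H3K27ac. Adamts1 had H3K27ac peaks with scores of 35 at the promoter and 37 downstream, and 1 Foxp4 peak with 21. Adamts15 had 10 H3K27ac peaks with scores of 20 to 40, of which 7 lay 75.6 to 144 kb downstream of its TSS, and a promoter peak that scored 27. The 4 Foxp4 peaks of Adamts15 scored 26, 34, 25 and 27 and lay 117833 to 188118 bp downstream, 19859 bp or more from H3K27ac. Adamts4 had 1 H3K27ac peak with a score of 53, centred 1060 bp from the TSS and so just outside the promoter window, and no Foxp4 peak. Adamts9 had 1 Foxp4 peak with a score of 27 and no H3K27ac peak. Adamts18 had 1 Foxp4 peak 136042 bp upstream, which scored 41.

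By peak, 6 of 94 member Foxp4 peaks overlapped H3K27ac, 6.38% (2.38 to 13.4%), beside 8.21% of the whole list, and 6 of 132 member H3K27ac peaks overlapped Foxp4, 4.55% (1.69 to 9.63%), beside 7.91%. By gene, 5 of 85 members, 5.88% (1.94 to 13.2%), and 5.36% of all genes had such an overlap. The whole-list values lay within the intervals. The 6 overlapping Foxp4 peaks scored 56, 41, 37, 34, 32 and 27, and 3 of these are recurrent values. Away from promoters, 5 of 90 member peaks overlapped, 5.56% (1.83 to 12.5%), beside 4.64% of the whole list. At promoters the 1 of 4 stood beside 42.3% of the whole list. Within 10 kb of an H3K27ac peak lay 30 of 94 member peaks, 31.9% (22.7 to 42.3%), beside 27.3% of the whole list. The median gap to H3K27ac was 21830 bp for the members and 39050 bp for the whole list.

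**Figure D5:**
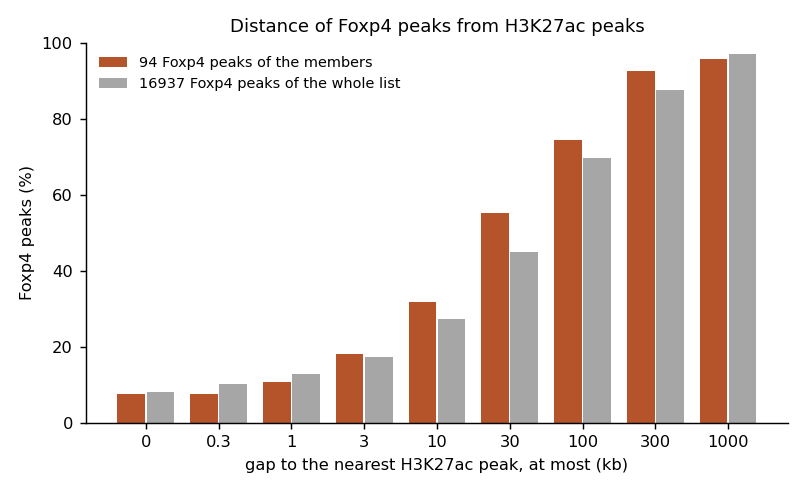
Cumulative share of Foxp4 peaks in percent whose gap to the nearest H3K27ac peak is at most the distance on the x axis in kb, for the 94 member peaks and for the whole list of 16937. The bars differ most at 30 kb, where they stand at 55.3% of member peaks and 44.9% of the whole list. At a gap of 0, which includes touching peaks, they stand at 7.45% and 8.23%. The member bar is the higher from 3 to 300 kb and the lower at the other steps.

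Assignment to the nearest start does not always name the gene a peak lies in. Of 55 Foxp4 member peaks inside a transcript, 13 lay in another gene, among them the 4 in Syn3, 2 in Ywhaq (for Adam17), 1 in Notch2 (for Adam30) and 1 in Mib2 (for Mmp23). Of 92 such H3K27ac peaks 9 did, among them 2 in Mmp8 (for Mmp27). In turn, 16 Foxp4 and 25 H3K27ac peaks inside the body of a member were assigned to another gene. At Timp2 these were 4 H3K27ac peaks with scores of 27 to 52 assigned to Cep295nl and a Foxp4 peak with 23 assigned to Usp36. At Mmp28 they were a Foxp4 peak with a score of 42 and an H3K27ac peak with 66.

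Other genes of the same pathway were read from 3 lists. Of 29 regulators and activators of metalloproteinases, 17 had a Foxp4 peak and 16 an H3K27ac peak, beside 36.6% and 37.5% of all protein-coding genes, and these lists were not matched to all genes for length. Genes with an overlap included Serpine2, an inhibitor of plasminogen activators, Lrp1, an endocytic receptor that clears proteases, and Spock2, a matrix proteoglycan. Lrp1 had 15 H3K27ac peaks with a top score of 134 and a Foxp4 peak with 56. None of the 29 had a Foxp4 promoter peak, beside 6.77% of all genes, and 10 had an H3K27ac promoter peak, beside 26.0%. Of 33 shed or cleaved substrates, 22 had a Foxp4 peak, 21 an H3K27ac peak and 7 an overlap, beside 36.6%, 37.5% and 5.36% of all genes. The overlaps were at Jag1, Tnfrsf1b, Dlk1, Btc, Pdgfra, Vcan and Sparc. Vcan, the versican core protein that Adamts enzymes cut, had 6 Foxp4 peaks with a top score of 41, of which 2 overlapped H3K27ac. Of 11 further matrix metalloendopeptidases, 7 had a Foxp4 peak, 6 an H3K27ac peak and 0 an overlap, beside the same shares of all genes.

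The pattern of Adam19, with a Foxp4 promoter peak, an H3K27ac promoter peak and an overlap, was shared over both lists by 2 of the 73 pathway genes, the Notch ligand Jag1 and the tumour necrosis factor receptor gene Tnfrsf1b. Their top Foxp4 scores were 35 and 55 and their top H3K27ac scores 53 and 54. The pattern of Adam12, with an H3K27ac promoter peak and an overlap but no Foxp4 promoter peak, was found among others at Lrp1 and Pdgfra, with top Foxp4 scores of 56 and 32.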

How the data were processed

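ChIP-seq of Foxp4 and of H3K27ac in beige adipocytes was analysed from the authors' annotated peak lists, 1 library each, grouped by sample title. Per the file headers, HOMER annotatePeaks.pl gave every peak of a narrowPeak list its nearest mm10 TSS and the distance to it. The deposited score is a whole number whose scale no header states. Per the submitters' processing notes, the tools were Bowtie2, Picard, SAMtools, MACS2 and deepTools 3.3.0. Their settings are not listed. How the input served in peak calling is not given in the sources used here. Reads per library cannot be seen in the lists, and a shallower library would yield fewer peaks.

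The 1 mitochondrial Foxp4 peak was left out. Overlap meant at least 1 shared bp, and a promoter peak had its centre within 1000 bp of the TSS. A score was called recurrent where 100 or more Foxp4 peaks held it and each adjacent value had less than 1 peak for every 3 of these. Genes, lengths and promoter sequences came from RefSeq (GRCm38.p6), matched by Entrez identifier or symbol. No genome sequence was used, so peak sequences were not analysed here.

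The members, the pathway lists and the cell type markers were chosen with earlier results of these data known. Genes named with values were those with a Foxp4 promoter peak or an overlapping peak, the 8 with the highest Foxp4 and the 10 with the highest H3K27ac scores, the 5 with the most peaks in each list (ties kept) and 25 fixed genes. The grouping of reproductive Adam genes, the bands of gene length, the neighbouring genes, the Mmp cluster and other genes named were chosen after their values were seen. Alternatives covered the overlap rule, the promoter window or class, the higher-scoring 50% of each list, the recurrent scores, distance of assignment and, added after seeing the data, peaks inside gene bodies. Overlap and gap routines were tested on simulated peaks. Software versions were matplotlib 3.10.9, scipy 1.17.1, pandas 2.3.3 and numpy 2.4.6.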

Additional observations from a re-analysis of the deposited data

How the results depend on the processing

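Of 76 values recomputed under other settings for 11 results, 57 moved by less than the interval of a share or within 1.5 times of a count, and 19 moved by more. With promoters taken within 500 bp, the share of member peaks there was 1.06% for Foxp4 and 5.30% for H3K27ac, and the genes numbered 1 (Mmp3) and 7. Within 3000 bp the H3K27ac share was 22.7% and the genes with a Foxp4 promoter peak numbered 9. By the authors' promoter class the H3K27ac share was 4.55% with 6 genes. In the higher-scoring 50% of each list, 27 members had a Foxp4 peak, 2 a Foxp4 promoter peak and 3 an overlap, and the median scores were 34 for Foxp4 and 53 for H3K27ac. Without Foxp4 peaks at the recurrent scores these numbers were 24, 2 and 3. Within 100 kb of the TSS 3 members had an overlap. Counting only peaks inside gene bodies, 28 members had a Foxp4 peak and 2 a Foxp4 promoter peak. The cause of these moves was not tested beyond what each setting removes. No paired analysis was possible because each target has 1 library. The number of peaks limits every share, read depth is unknown, and the lists show neither binding strength across libraries nor expression.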

Other observations

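In 2 pairs of neighbouring members, the H3K27ac peaks lay within or were assigned to 1 gene of the pair. Adam9 and Adam32 lie 692 bp apart on chromosome 8. Their 3 H3K27ac peaks all fell inside Adam9, at the promoter (score 121), in intron 11 (34) and in intron 14 (74), and their 2 Foxp4 peaks lay in Adam9 intron 8 (28) and Adam32 intron 11 (27). Adamts8 and Adamts15 lie 20.1 kb apart on chromosome 9 and had 6 Foxp4 peaks and 10 H3K27ac peaks together, all 10 H3K27ac peaks assigned to Adamts15. The 2 Foxp4 peaks of Adamts8, with scores of 28 and 21, were 15316 and 51956 bp from H3K27ac.

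Among members with Foxp4 peaks and no H3K27ac peak, Adamts6 had 3 Foxp4 peaks scoring 21, 25 and 27, the nearest H3K27ac peak being 62166 bp away. Adam22 had 1 with a score of 34 in intron 3, 210455 bp from H3K27ac, and Adam11 had 1 with a score of 34, 131930 bp away. Adamts13, the protease that cuts von Willebrand factor, had 1 with a score of 27 in intron 11, 19700 bp away. A further 2 Foxp4 peaks inside Adamts13, both with a score of 24, were assigned to Cacfd1.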
